A study of Mus musculus with 8 samples.

Results

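miR-128-1 is 1 of the 16 amplicons that were sequenced here to count mutations left by CRISPR/Cas9, and the nearest relative of miR-128-2, the amplicon in which guide Sa2 left indels. Its data are the 16 blocks that carry its name, a forward and a reverse block in each of 8 libraries, with 531343 of the 6312034 reads of all amplicons. The locus was chosen by its measured indel share, already known to be low with guide Sa2, so that comparison is given as a description with no test.

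MicroRNAs are short RNAs cut from a hairpin precursor. One strand of the cut duplex is loaded into an Argonaute protein and pairs with messenger RNAs mainly through its seed, the bases near its 5′ end. miR-128 is abundant in brain neurons. It comes from a pair of unlinked genes whose mature 3p strands are identical, while their loops and 5p arms differ.

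C57BL/6 wild-type mice had received AAV vectors coding for CRISPR/Cas9 in the motor cortex, and tissue was taken after 4 weeks. The study set out to count mutations at the miR-124 and miR-128 loci, both miR-128 paralogs included, and elsewhere. There were 4 constructs: guide Sa2, directed at miR-128; guide Sa4, directed at miR-124; guide Sa1, described as inoperative; and a construct with no guide. Nuclei were isolated by fluorescence-activated sorting, and genomic DNA was amplified from the Cas9-positive and the Cas9-negative fraction of each construct, which makes 8 groups of 1 library each; the promoter driving Cas9 and the number of mice per library are not given in the sources used here. The labels call the tissue brain and the cells neural, which amplicon counts of genomic DNA cannot check.

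The amplicon is the whole Mir128-1 hairpin: its expected sequence equals the 70-base RefSeq hairpin at chr1:128202361-128202430 on the plus strand (GRCm38.p6), inside the span of R3hdm1. Mir128-2, a hairpin of 76 bases, lies at chr9:112118636-112118711 on the minus strand, inside the span of Arpp21; whether the host exons or introns hold them was not determined. The sequence below is the miR-128-1 amplicon, with the hexamer GTGAAC beside the target in capitals; bases are counted from 1 at its 5′ end.
miR-128-1 amplicon: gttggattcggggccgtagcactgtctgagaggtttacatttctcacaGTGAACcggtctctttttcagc

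The guide sequences are not given in the sources used here. The target was taken as the 21 bases before the hexamer, with the cut 3 bp before it, a placement made with the positions of the miR-128-2 indels in view. At miR-128-1 the target is bases 28 to 48, the hexamer bases 49 to 54, and the predicted cut lies between bases 45 and 46. The target and hexamer of both paralogs are set out here, with the bases that differ in capitals, because they carry the comparison between an edited and an unedited locus.
miR-128-1 target: gagAgGTtTAcaTTtctcacagtgaac
miR-128-2 target: gagTgAGtAGcaGGtctcacagtgaac

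The paralogs differ at 7 of the 21 target bases and at 0 of the 6 bases of the hexamer. Written as the miR-128-1 base, its position in the hairpin and the miR-128-2 base, the differences are A31T, G33A, T34G, T36A, A37G, T40G and T41G. All of them lie in the first 14 target bases, so the 7 bases next to the hexamer match, and the nearest difference is the 8th base from the hexamer. Around the cut 23 bases are shared, 4 before it and 19 after it, and they contain the whole mature strand. Mature miR-128-3p, bases 44 to 64 of the miR-128-1 hairpin, is given with its seed in capitals; the predicted cut falls between its bases 2 and 3.
mmu-miR-128-3p: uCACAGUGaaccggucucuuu

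Reads at miR-128-1 numbered 26844 in the Sa1 Cas9-positive library at the lowest and 113351 in the Sa1 Cas9-negative library at the highest. A block lists every distinct sequence with up to 7 mutated bases; sequences with more are only counted, as reads beyond the mutation limit, so that a deletion of over 7 bases is not seen as such. The Sa4 Cas9-negative library stood apart: 43.2% of its miR-128-1 reads had no mutation and 19.0% lay beyond the limit. In the other 7 libraries 54.6% to 55.6% had no mutation and 12.8% to 13.1% lay beyond the limit. Results are given without that library where it alone moves them. Intervals below are 95% Wilson intervals and cover counting error only, since PCR reads without molecular identifiers are not independent molecules.

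With guide Sa2, miR-128-1 had an indel share like that of the library without a guide, while miR-128-2 was edited in most reads. The indel share is the share of reads with an insertion or deletion touching the 20 bases around the predicted cut, bases 36 to 55. In Cas9-positive nuclei, 43 of 59188 reads of miR-128-1 had such an indel with guide Sa2 (0.0726%; 0.0539% to 0.0978%). With no guide there were 41 of 56532 (0.0725%; 0.0535% to 0.0984%). With guide Sa1 the count was 20 of 26844 (0.0745%; 0.0482% to 0.115%), and with guide Sa4 it was 40 of 64073 (0.0624%; 0.0459% to 0.0850%). The 4 intervals overlap.

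The Cas9-negative libraries had 23 of 57368 reads with guide Sa2 (0.0401%; 0.0267% to 0.0602%), 47 of 100617 with no guide (0.0467%; 0.0351% to 0.0621%) and 61 of 113351 with guide Sa1 (0.0538%; 0.0419% to 0.0691%). The Sa4 Cas9-negative library had 39 of 53370 (0.0731%; 0.0535% to 0.0999%). The 6 libraries without guide Sa2 spanned 0.0467% to 0.0745%; the Sa2 Cas9-positive library lay inside that range and the Sa2 Cas9-negative library below it.

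The difference between guide Sa2 and no guide in Cas9-positive nuclei was 0.000125 percentage points, with a Newcombe interval from -0.0318 to 0.0317. At miR-128-2 the same Cas9-positive library had an indel in 53244 of 63144 reads (84.3%). Reads beyond the mutation limit, in which a longer deletion would be counted, made up 13.03% of miR-128-1 reads with guide Sa2 and 12.78% with no guide, a difference of 0.253 points (-0.134 to 0.639). At this depth a difference above the upper bound of 0.0317 points in listed indels, or of 0.639 points in reads beyond the limit, lies outside the interval; a smaller one could not be seen.

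**Figure D1:**
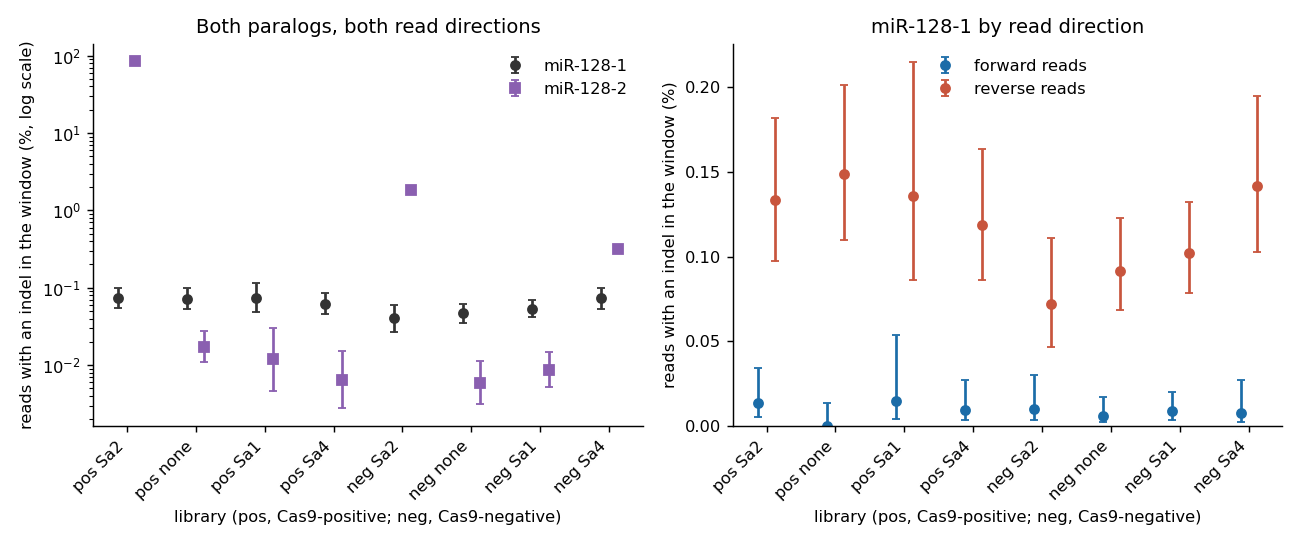
Share of reads with an indel in the 20 bases around the predicted cut, by library. Left, both paralogs on a log axis, both read directions pooled; right, miR-128-1 on a linear axis split by read direction; points are shares and bars 95% Wilson intervals. miR-128-1 stays between 0.0401% and 0.0745% in all 8 libraries, while miR-128-2 runs from 0.00592% to 84.3%, and 292 of the 314 miR-128-1 window indel reads are reverse reads.

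The guides not directed at miR-128 were tested on the reads of pairs of libraries by Fisher's exact test, two-sided and adjusted by Benjamini-Hochberg over all loci of a family; these tests compare the 2 libraries, not the conditions. A locus was called at an adjusted p under 0.05 and a difference of at least 0.1 points. Against no guide in Cas9-positive nuclei, guide Sa1 differed at miR-128-1 by 0.00198 points (-0.0349 to 0.0468; Fisher's exact test, adjusted p = 1). Of the 15 loci in that comparison 0 were called (0%), and 0 had an unadjusted p under 0.05. Guide Sa4 differed from no guide by -0.0101 points (-0.0408 to 0.0194; Fisher's exact test, adjusted p = 1), where 2 of 14 loci were called (14.3%) and miR-128-1 was not among them. For guide Sa2 the background was 1 called locus of 15 (6.67%), namely miR-128-2.

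Sort fractions of the same construct were set against each other in the same way. With no guide, the Cas9-positive library was higher than the Cas9-negative one by 0.0258 points (0.00132 to 0.0541), with an unadjusted p of 0.045 and an adjusted p of 0.332 (Fisher's exact test). In that comparison 0 of 15 loci were called (0%), and 2 had an unadjusted p under 0.05. The difference was 0.0207 points with guide Sa1 (-0.00971 to 0.0630; Fisher's exact test, adjusted p = 0.754; 0 of 15 loci called, 0%, and 0 with an unadjusted p under 0.05). With guide Sa4 it was -0.0106 points (-0.0422 to 0.0192; Fisher's exact test, adjusted p = 1; 3 of 14 loci called, 21.4%). With guide Sa2 it was 0.0326 points (0.00513 to 0.0611), given as a description with no test (1 of 15 loci called, 6.67%). The Cas9-positive library had the higher share in 3 of the 4 pairs, and miR-128-1 was called in 0 of the 3 that were tested.

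Window indels at miR-128-1 came mostly from reverse reads. Forward reads held 22 window indels over all 8 libraries and reverse reads 292, from similar numbers of reads. In forward reads the share ran from 0% in the no-guide Cas9-positive library (0 of 28943 reads; a count of 0 allows up to 0.0104%) to 0.0147% in the Sa1 Cas9-positive library. In reverse reads it ran from 0.0720% in the Sa2 Cas9-negative library to 0.149% in the no-guide Cas9-positive library. The ranges do not overlap. Reverse reads were higher in 8 of 8 libraries, with a mean of 0.118% ± 0.0271 (SD, n = 8) against 0.00862% ± 0.00457 (SD, n = 8) in forward reads. The mean difference over the 8 libraries, forward minus reverse, was -0.109 points. Because the locus was chosen by its window indels with guide Sa2, the test is given over the 6 libraries without it. There the difference was -0.115 points (exact sign-flip permutation test over libraries, two-sided, p = 0.0312, the smallest that 6 libraries allow). With guide Sa2 in Cas9-positive nuclei there were 4 forward reads (0.0134%; 0.00520% to 0.0344%) and 39 reverse reads (0.133%; 0.0975% to 0.182%). Reverse reads of miR-128-1 also carried more substitutions, as given further on, and the part of these in its indel counts was not tested. At miR-128-2 the same library gave 82.6% in forward and 86.2% in reverse reads.

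The make-up of the window indels was read next. Of the 314 reads over all libraries, 183 had deletions only, 7 insertions only and 124 both; in 123 reads (39.2%) the inserted and deleted bases cancelled out to a net length of 0. A further substitution was present in 268 of them (85.4%), and 280 were sequences seen in 1 read of their block. Both were more frequent in reverse reads: 263 of 292 reverse reads (90.1%) carried a substitution and 122 (41.8%) had a net length of 0, against 5 (22.7%) and 1 (4.55%) of the 22 forward reads. Among all miR-128-1 reads, 25.2% to 26.7% of reverse and 82.3% to 83.2% of forward reads had no mutation. These ranges leave out the Sa4 Cas9-negative library. Most reverse reads were thus mutated with or without an indel. Whether indel reads carried more substitutions than other reads of their direction was not tested. At miR-128-2 with guide Sa2 in Cas9-positive nuclei, 12.8% of 53244 indel reads carried a substitution and 5 reads had a net length of 0. Substitutions in all reads also differed between the paralogs, as given further on. With guide Sa2, the 43 window reads of miR-128-1 fell into 17 alleles, an allele being the indel alone with substitutions set aside. Of these alleles 15, with 41 of the reads, also occurred in a library without guide Sa2. The other 2 were seen in 1 read each. The 6 libraries without guide Sa2 together held 248 window indel reads. The same overlap was not counted for any other library, so the 15 of 17 has no baseline and no conclusion is drawn from it.

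Each of the leading miR-128-2 alleles was then looked up at miR-128-1. The 10 with most reads with guide Sa2 in Cas9-positive nuclei held 51575 reads, 96.9% of the window indel reads there, and 8 of them lie within the shared 23 bases, where the same change can be written at both loci. Among these 8 are the deletion of C at the base before the cut (8213 reads at miR-128-2), the deletion of TCTCAC across the cut (8189 reads) and the insertion of T at the cut (1460 reads). At miR-128-1 in the same library, 7 of the 8 had 0 reads. Over all 8 libraries those 7 had 3 reads at miR-128-1, all of them from libraries without guide Sa2.

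The exception was the loss of 1 CA from the CACA repeat that spans the cut. The shared bases are shown with the repeat in capitals, first unchanged and then with 1 CA left, because this change occurs at both paralogs.
miR-128-1 CA repeat: tctCACAgtgaaccggtctcttt
miR-128-1 CA deleted: tctCAgtgaaccggtctcttt

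At miR-128-1 the CA deletion had 102 reads over 8 libraries, 101 of them reverse, the direction in which most reads had a mutation. It came with a substitution in 78 of the 102. In Cas9-positive nuclei it had 18 reads with guide Sa2, 16 with no guide, 6 with guide Sa1 and 14 with guide Sa4; in Cas9-negative nuclei the numbers were 7, 11, 21 and 9 in the same order. In reverse reads, that is 0.0615% with guide Sa2 (0.0389% to 0.0972%) and 0.0580% with no guide (0.0357% to 0.0942%) in Cas9-positive nuclei, and 0.0229% to 0.0364% in Cas9-negative nuclei. The Cas9-positive share was the higher one with all 4 constructs, as it was for indels anywhere in the amplicon, given further on. The allele is thus present with and without a guide, and the intervals of guide Sa2 and no guide overlap. At miR-128-2 it had 5364 reads with guide Sa2 in Cas9-positive nuclei, 2846 forward and 2518 reverse, and 1808 reads in Cas9-negative nuclei, 949 forward and 859 reverse. In the same libraries the forward reads of miR-128-1 held 0 reads of it.

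Most indels of miR-128-1 lay outside the window. Counted over the whole amplicon, 1330 reads carried an indel, 1021 of them reverse, in 214 alleles, of which 112 were seen once; the 5 with most reads held 53.8%. The most frequent was the loss of 1 T from the T run that starts at base 62 (208 reads, 136 forward and 72 reverse). The others were the loss of 1 GA from the GAGAG stretch at bases 28 to 32 (206 reads), of 1 G at base 4 (118 reads), of the CA just described, and of 1 G from the run starting at base 10 (81 reads). All 5 remove 1 unit of a repeat, and all 5 were found in all 8 libraries. The 3 alleles with most reads in each Cas9-positive library were among these 5.

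The GA deletion, at the end of the target far from the hexamer, differed in share between the libraries. It was almost absent from forward reads (2 reads) and had 204 reverse reads, the direction in which most reads had a mutation. It came with a substitution in 170 of its 206 reads. In Cas9-positive nuclei its share of reverse reads was 0.167% with guide Sa2 (0.127% to 0.221%), 0.0906% with no guide (0.0614% to 0.134%), 0.0680% with guide Sa1 (0.0358% to 0.129%) and 0.148% with guide Sa4 (0.111% to 0.197%). In Cas9-negative nuclei it was 0.0648% with guide Sa2, 0.0395% with no guide, 0.0419% with guide Sa1 and 0.0574% with guide Sa4. The Cas9-positive library was the higher one with all 4 constructs. The same held for indels anywhere in the amplicon, these deletions included. Their Cas9-positive and Cas9-negative shares of all reads were 0.296% and 0.216% with guide Sa2, and 0.271% and 0.210% with no guide. With guide Sa1 they were 0.291% and 0.211%, and with guide Sa4 0.314% and 0.279%. The order of the sort fractions is thus not particular to this allele. This allele was noticed after its values were seen, and no test was made of it.

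**Figure D2:**
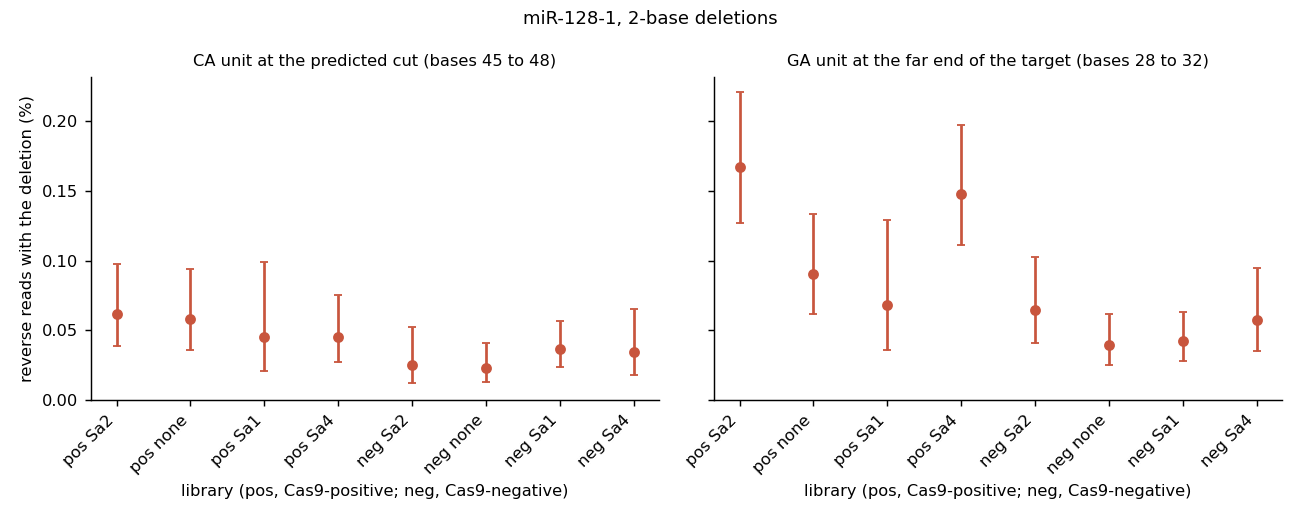
Share of miR-128-1 reverse reads with the loss of 1 CA at the predicted cut (left) or 1 GA at the far end of the target (right), by library, with 95% Wilson intervals. The CA deletion lies between 0.0229% and 0.0615%; the GA deletion reaches 0.167% with guide Sa2 and 0.148% with guide Sa4 in Cas9-positive nuclei.

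Per base, the window held fewer indels than the rest of the amplicon. The share of reads with an indel, divided by the number of bases, was 0.00310% ± 0.000677 in the window and 0.00436% ± 0.000731 outside it (SD, n = 8), lower in the window in 8 of 8 libraries. Because the locus was chosen by its window indels with guide Sa2, the test is given over the 6 libraries without it, where the difference was -0.00119 points per base (exact sign-flip permutation test, two-sided, p = 0.0312, the smallest that 6 libraries allow). Over all 8 libraries the difference was not past 0.05 with reverse reads alone (p = 0.102, exact) or with a window of 5 bp on each side (p = 0.141, exact), and with indels of at least 2 bp the window was higher (0.000272 points per base, exact p = 0.141). In reverse reads with guide Sa2, 0.191% had an indel at base 29, 0.0786% at base 45 and 0.0683% at base 46. The 6 libraries without guide Sa2 spanned 0.0499% to 0.164% at base 29, 0.0419% to 0.0652% at base 45 and 0.0291% to 0.0761% at base 46. So the Sa2 Cas9-positive library lay above that range at bases 29 and 45 and inside it at base 46. Along the whole hairpin it was also above the range at bases 27, 28, 31, 34 and 53, and below it at bases 15, 23, 38 and 49. No test was made of these.

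**Figure D3:**
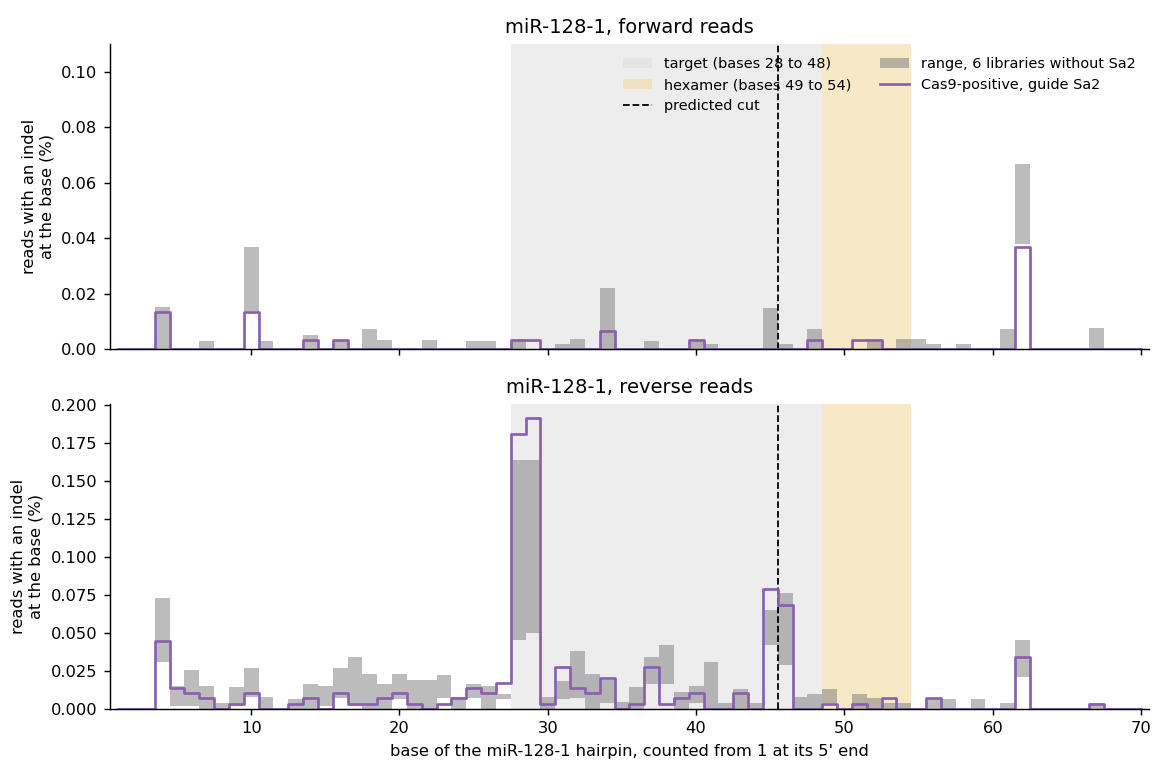
Share of miR-128-1 reads with a deleted or inserted base at each base of the hairpin, in forward reads (top) and reverse reads (bottom); the line is the Sa2 Cas9-positive library and the dark band the range of the 6 libraries without guide Sa2. Indels are placed as far 5′ as the sequence allows, and the vertical scales of the panels differ. The highest reverse peak is at bases 28 and 29, at 0.191% with guide Sa2, and the peak at the predicted cut occurs with and without the guide.

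Substitutions were far more frequent than indels at miR-128-1 and were likewise carried by reverse reads. Forward reads had 0.334% ± 0.0771 substituted bases per base and reverse reads 1.75% ± 0.139 (SD, n = 8), a ratio of 5.25. Reads beyond the mutation limit count in these denominators, but their substitutions are not listed and so not counted. The mean difference, forward minus reverse, was -1.42 points, in the same direction in 8 of 8 libraries (exact sign-flip permutation test, p = 0.00781, the smallest possible, not adjusted). With reads beyond the limit left out, the mean difference was -2.01 points. Without the Sa4 Cas9-negative library, forward reads of the other 7 libraries had 0.298% to 0.318% per base and reverse reads 1.67% to 1.72%. Accordingly 82.3% to 83.2% of forward reads and 25.2% to 26.7% of reverse reads had no mutation in those 7 libraries, and 2.58% to 2.75% of forward reads but 23.4% to 24.3% of reverse reads lay beyond the limit. In the Sa4 Cas9-negative library these shares were 72.2% and 13.04%, and 4.32% and 34.2%.

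Along the hairpin the reverse substitutions were highest in the 5′ part. Per base, reverse reads had a median over libraries of 2.38% in bases 1 to 23, 1.84% in bases 24 to 47 and 0.920% in bases 48 to 70, while forward reads had 0.288%, 0.226% and 0.413%. Base 6 was highest, with A6T its commonest change: 10.1% to 11.9% of reverse reads and 0.0933% to 0.154% of forward reads were substituted there. Next came base 18 (A18T; reverse median 7.71%), base 21 (A21T; 5.34%), base 34 (T34A; 5.23%) and base 29 (A29T; 4.57%). Of these only bases 29 and 34 lie in the target, and none in the window. Of the 66 bases with any substitution, reverse reads exceeded forward reads in every pairing of libraries at 57, and forward exceeded reverse at 5. The largest forward value was at base 53 in the hexamer (A53T; 2.69% to 4.48% of forward reads, 1.06% to 1.71% of reverse reads). Among reads within the mutation limit, none had a substitution at the outermost bases 1, 2, 69 and 70.

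The profile with guide Sa2 was set against the others as a description. Over the 70 bases, the share of reads substituted at a base differed between guide Sa2 and no guide in Cas9-positive nuclei by -0.131 points (base 41) to 0.208 points (base 29), with a median of 0.0102 points. At base 6 the shares were 5.64% and 5.71%, and at base 29 they were 2.40% and 2.19%. The Sa2 Cas9-positive library had the lowest share of the 8 libraries at 13 of the 66 bases, and the no-guide Cas9-positive library at 20. The 13 include 5 consecutive bases before the cut, 38 (C38A; 1.20%), 39 (A39T; 0.639%), 40 (T40A; 0.824%), 41 (T41A; 0.596%) and 42 (T42A; 0.106%); with no guide these were 1.25%, 0.681%, 0.941%, 0.727% and 0.140%. This run was noticed after its values were seen, and no test was made of it. The no-guide Cas9-positive library had runs of its own, among them bases 27 to 29 and bases 43 and 44, which also lie before the cut. The Sa2 Cas9-positive library was highest at 0 bases, and the Sa4 Cas9-negative library at 64.

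**Figure D4:**
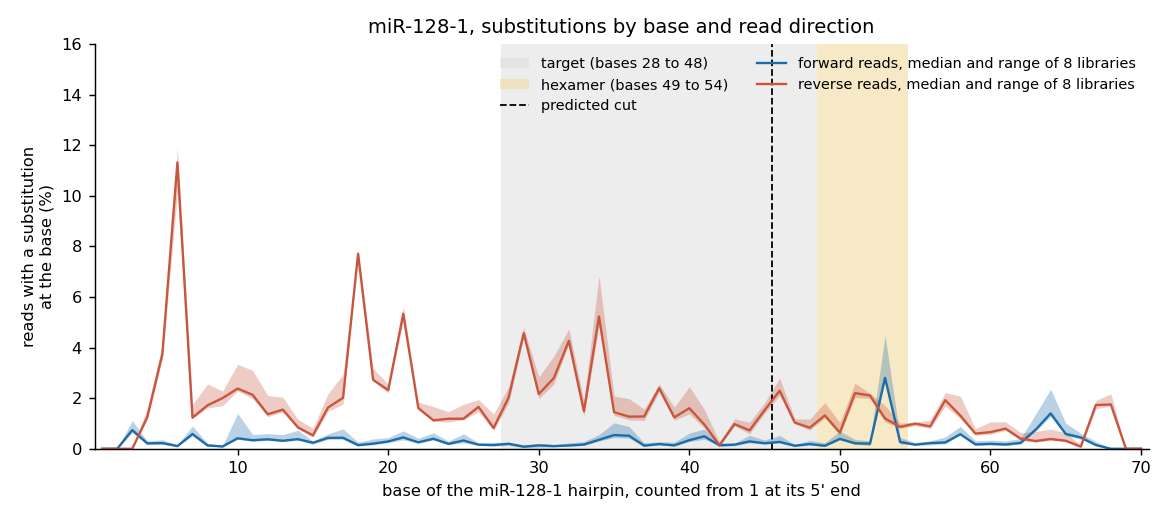
Share of miR-128-1 reads with a substitution at each base of the hairpin, for forward and reverse reads; lines are medians and bands the range of 8 libraries. Reverse reads peak at base 6 (median 11.3%), and forward reads at base 53 in the hexamer (median 2.80%).

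The differing target bases were read one by one, to see how often a miR-128-1 read carried the miR-128-2 base. In reverse reads the median share with the miR-128-2 base over 8 libraries was 2.46% at A31T, 0.0611% at G33A, 2.42% at T34G, 1.08% at T36A, 0.0196% at A37G, 0.0897% at T40G and 0.0106% at T41G. In forward reads the 7 medians lay between 0.0178% and 0.427%. At G33A, A37G, T40G and T41G another base was more frequent than the miR-128-2 base in all 8 libraries and both directions; at A31T and T36A the miR-128-2 base was the more frequent one. At T34G another base was more frequent in forward reads of all 8 libraries and in reverse reads of 6; in reverse reads of the Sa2 and Sa4 Cas9-positive libraries the miR-128-2 base was (2.44% against 2.41%, and 2.60% against 2.49%). With guide Sa2 in Cas9-positive nuclei 3.12% of reads carried at least 1 of the 7 miR-128-2 bases, against 3.10% with no guide. At least 2 were found in 0.112% and 0.0991%. Over all 8 libraries 14 reads carried at least 3 and 0 carried 4 or more.

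The bases shared by both paralogs allow the same sequence to be compared between the loci. Over the 6 libraries without guide Sa2, these 23 bases had 0.770% ± 0.123 substitutions per base at miR-128-1 and 0.480% ± 0.0762 at miR-128-2 (SD, n = 6). The difference was 0.290 points (exact sign-flip permutation test, p = 0.0312, the smallest that 6 libraries allow). Adjusted over the 5 main sign-flip tests, some of them run over all 8 libraries, this p was 0.0391. Its sign depended on the read direction. In reverse reads miR-128-1 had 1.01% to 1.36% and miR-128-2 0.289% to 0.418%, a difference of 0.781 points. In forward reads miR-128-1 had 0.405% to 0.692% and miR-128-2 0.570% to 0.832%, a difference of -0.166 points (exact p = 0.0312 in each direction). Forward reads thus had more substitutions at miR-128-2 and reverse reads more at miR-128-1, in 6 of 6 libraries.

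**Figure D5:**
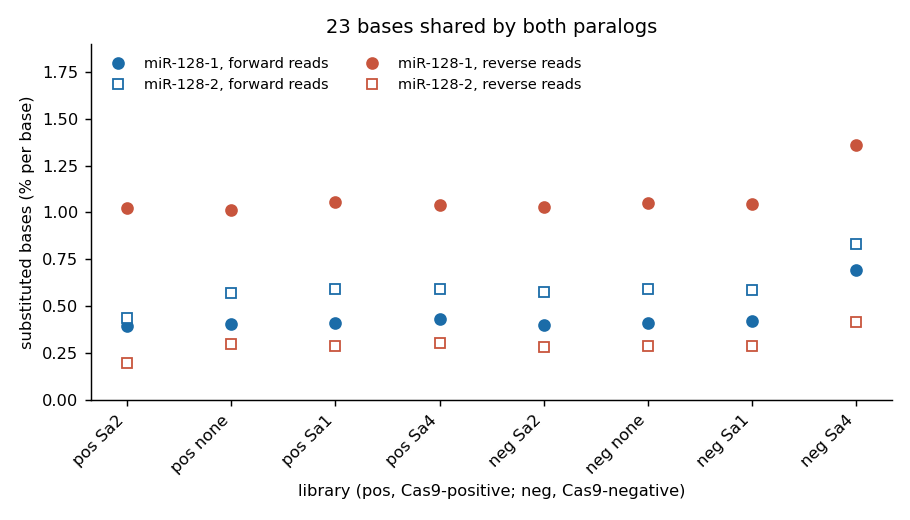
Substituted bases per base, in percent, over the 23 bases that both paralogs share around the predicted cut, by library, locus and read direction. Reverse reads of miR-128-1 are highest in every library, at 1.01% to 1.36%; reverse reads of miR-128-2 are lowest in every library.

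Indels of the paralogs without guide Sa2 were compared in the same way. In 5 of the 6 libraries the window indel share was higher at miR-128-1 (0.0467% to 0.0745%) than at miR-128-2 (0.00592% to 0.0172%). The Sa4 Cas9-negative library went the other way, with 0.0731% at miR-128-1 and 0.317% at miR-128-2. Of its 305 miR-128-2 indel reads, 288 were 1 allele, a deletion of CAGGTCT at base 42 (133 forward and 155 reverse). That allele had 4932 reads with guide Sa2 in Cas9-positive nuclei and 0 in the Sa2 Cas9-negative library. How it came to be in the Sa4 Cas9-negative library was not tested. The mean difference over the 6 was 0.00259 points (exact sign-flip permutation test, p = 1, adjusted p = 1). Without the Sa4 Cas9-negative library it was 0.0520 points, with 5 of 5 in the same direction. The p of 0.0625 (exact sign-flip permutation test) is the smallest that 5 libraries allow. In forward reads the difference over the 6 was -0.0491 points (exact p = 0.0312), of which -0.00448 points remained without that library (exact p = 0.0625).

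The sequence of the mature strand was intact in most miR-128-1 reads, with and without guide Sa2. Among reads within the mutation limit, the seed of miR-128-3p was unchanged in 94.2% with guide Sa2 and 94.3% with no guide in Cas9-positive nuclei, and the 8 libraries ran from 91.7% (the Sa4 Cas9-negative library) to 94.4%. An indel touched the seed in 26 of 51474 reads with guide Sa2 (0.0505%) and in 22 of 49307 with no guide (0.0446%); the other changed seeds carried substitutions only. The whole mature strand was unchanged in 85.6% and 85.7% of reads. All shares in this paragraph pool both read directions, and reverse reads of miR-128-1 carried more substitutions, as given above. They are shares of reads and not of genomic copies. At miR-128-2, which gives the same mature strand, the seed was unchanged in 23.6% of reads with guide Sa2 and in 97.6% with no guide. The miR-128-1-5p arm, outside the predicted cut, was unchanged in 80.0% of miR-128-1 reads with guide Sa2 and 80.5% with no guide.

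Among the other amplicons, 13 had usable reads in all 8 libraries, and the pair closest to miR-128-1 in window indel share both have names that begin with OT_sa4. Their names place them on chromosome 13 at 59004015 and on chromosome 3 at 70303938, in a build that is not stated. Their mean absolute differences from miR-128-1 over the 8 libraries were 0.0146 and 0.0175 points. Their own shares ran from 0.0156% to 0.0880% and from 0.0399% to 0.0516%. miR-128-2 was at 10.8 points, with the libraries of guide Sa2 included. In 5 of the 6 libraries without guide Sa2, miR-128-1 exceeded miR-128-2 by 0.0408 to 0.0626 points. In the Sa4 Cas9-negative library the difference was -0.244 points.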

How the data were processed

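Per the file headers, the authors deposited read counts by number of mutations, with the percent of the block's reads that each number makes up, and read counts of each distinct sequence; each block also gives the expected sequence in both orientations. The submitters' processing notes name bcl2fastq and cutadapt, without version; the aligner, filters and genome build are not given in the sources used here. Both directions list first reads only, as judged by the read name printed with each sequence.

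Listed events were placed on the expected sequence and each indel moved to its most 5′ place; 17 of 74979 sequences of miR-128-1 (17 reads) could not be placed and count as reads without an indel. Denominators include reads beyond the mutation limit. For the tests across loci, 13 blocks with over 90% of reads beyond the limit were left out, and 37 held no reads. Wilson and Newcombe intervals, Fisher's exact tests and exact sign-flip tests over libraries were computed with Python 3.11.15, SciPy 1.17.1 and statsmodels 0.14.6, and the code was tested on simulated data.

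Named were both miR-128 loci, the 2 amplicons nearest in indel share, the 5 miR-128-1 alleles with most reads overall and the 3 with most in each Cas9-positive library, the 5 bases with most substitutions, the differing target bases, and 10 miR-128-2 alleles. Locus, lists and tests were chosen with earlier results of these data known. Sequences are from the files and RefSeq (GRCm38.p6); 2 of 2 hairpins matched.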

Additional observations from a re-analysis of the deposited data

Results flagged for a closer look

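A signal in data outside the window counts was taken as one whose lower 95% Wilson bound, in a library with a guide, lay above the share in both libraries without a guide. This rule is a screen and not a test. It leaves out the counting error of the shares without a guide and has no adjustment for the number of values screened. For the GA deletion in Cas9-positive reverse reads, the intervals of guides Sa2 and Sa4 overlap that of no guide. The loss of 1 GA at bases 28 to 32 met this in Cas9-positive nuclei with guide Sa2, at 0.0845% of all miR-128-1 reads, and with guide Sa4, at 0.0718%; without a guide it had 0.0442% in Cas9-positive and 0.0189% in Cas9-negative nuclei. Reads beyond the mutation limit met it in 2 Cas9-negative libraries, those of guide Sa1 (13.1%) and of guide Sa4 (19.0%), against 12.8% in both libraries without a guide. With 1 library per group, the differences between libraries have no replicate, and no cause was tested.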

How the results depend on the processing

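No paired analysis was possible because each group has 1 library, so that a replicate number cannot serve as a block; the sign-flip tests pair values within a library. The median indel share over 8 libraries, 0.0675%, moved to 0.275% with indels anywhere in the amplicon, 0.0381% with a window of 5 bp, 0.0245% with indels of at least 2 bp, 0.00883% in forward reads, 0.126% in reverse reads and 0% with only sequences of at least 10 reads. The difference of guide Sa2 from no guide lay between -0.0154 and 0.0250 points over its 7 alternatives. These count other indels or other reads, so the Newcombe interval of the main setting does not apply to them. In forward reads the shares were 0.0134% with guide Sa2 and 0% with no guide. With sequences of at least 10 reads both shares were 0%. Differences that missed the threshold changed sign, with Fisher's exact test: guide Sa1 against no guide to -0.00697 (5 bp), -0.00576 (at least 2 bp) and -0.0126 points (reverse reads); guide Sa4 against no guide to 0.0431 (anywhere) and 0.00910 (forward reads); Cas9-positive against Cas9-negative to -0.00571 with no guide (forward reads), and to 0.0345 (anywhere) and 0.00175 (forward reads) with guide Sa4. Their adjusted p over all alternatives of these 5 comparisons was 0.0892 at the lowest. The indel difference between paralogs turned to -0.0187 (5 bp), -0.0287 (at least 2 bp), -0.0491 (forward reads), -0.0499 (at least 10 reads) and -0.00448 points (forward reads without the Sa4 Cas9-negative library, an alternative chosen after seeing the data). The substitution difference in the shared bases turned to -0.166 points in forward reads and -0.0511 with at least 10 reads, and was 0.271 points without the Sa4 Cas9-negative library (exact p = 0.0625, the smallest possible with 5 libraries). The forward minus reverse difference in indel share was 0 with at least 10 reads, since no window sequence has that many. Over all 8 libraries, those with guide Sa2 included, window minus rest per base was -0.000341 points (5 bp), -0.000767 (reverse reads) and 0.000272 (at least 2 bp). None of these was past 0.05. The causes were not tested. Of 81 recomputed main values 55 kept direction and side of the threshold.
Indels of over 7 bases, and any in reads with many substitutions, are not visible here, which weighs most on reverse reads; mice and libraries cannot be told apart.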
